A study of Mus musculus with 4 samples.

Results

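The peaks described here lie in the 45S ribosomal DNA (rDNA) that the human assembly GRCh38 holds on chromosome 21 and on 2 scaffolds outside the assembled chromosomes. They were taken by position from the deposited peak list of the TRAFTAC dataset, as the peaks on chromosome 21 from 8200000 to 8460000, GL000220.1 from 100000 to 165000 and KI270733.1 from 118000 to 182000. This gave 76 of the 48751 peaks (0.156%), with 42 on chromosome 21, 19 on GL000220.1 and 15 on KI270733.1. Among them, these stretches hold the genes RNA45SN1, RNA45SN2, RNA45SN3, RNA45SN4 and RNA45SN5. A GRCh38 annotation or sequence was not used here, so the units below are named by their place on the assembly and no peak is assigned to a named gene, a strand or a transcribed part. The stretches were chosen from results of the same list, and all values of their peaks are therefore given as a description, with no test.

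The list comes from ATAC-seq, in which the Tn5 transposase cuts and tags accessible DNA, in HEK293 cells, an established human line from embryonic kidney. All cells were transfected for 6 h with a plasmid (1 μg/mL) for a deactivated Cas9 fused to the HaloTag7, together with 25 nM of a TRAFTAC, a DNA-RNA hybrid whose DNA part carries either the NFkB motif or a scrambled sequence. They were then given 5 ng/mL TNF-α, which activates NFkB, and 25 μM HP14, a PROTAC against the HaloTag, for 19 h. Before harvest, all cells received 200 units/mL DNase. There were 2 libraries with the NFkB TRAFTAC and 2 with the scrambled TRAFTAC, each from 50000 cells. The peaks were called on the 4 libraries merged, so each value below is a value of the pool, and neither a replicate error nor a comparison of the TRAFTACs could be had. The labels name the mouse as the organism, but the sequence names are those of GRCh38, and the mouse gene table used as reference has 0 genes on a chromosome 21.

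In human cells the 45S genes stand in tandem arrays on the short arms of the acrocentric chromosomes. Each unit consists of a gene transcribed by RNA polymerase I, whose precursor RNA is cut into the 18S, 5.8S and 28S rRNAs of the ribosome, and of a long intergenic spacer before the next gene. Only some of the copies in a cell are active, and these are largely depleted of nucleosomes and bound by the factor UBTF along the gene. The assembly holds only a few of the many copies of a cell, so that fragments from copies it does not hold can be placed on those that it does. The number of copies and the accessibility of each copy cannot be told apart in these values.

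The peaks fell into 8 runs of closely spaced peaks, in which fragments were stacked far above the level of the rest of the genome. Chromosome 21 held 4 of these runs, called units 21-A, 21-B, 21-C and 21-D in the order of their coordinates. GL000220.1 held units GL-A and GL-B, and KI270733.1 held units KI-A and KI-B. The runs contained 53 peaks and are called dense runs here. A further 19 peaks lay downstream of a run in the direction of increasing coordinates and are called spacer peaks. The remaining 4 peaks lay on chromosome 21 between units 21-B and 21-C. The start of the first peak of a run served as the anchor from which positions in the unit were counted.

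Consecutive units were spaced at similar distances. From anchor to anchor it was 44229 bp from 21-A to 21-B, 44263 bp from 21-C to 21-D, 44014 bp from GL-A to GL-B and 45116 bp from KI-A to KI-B. The distance from 21-B to 21-C was 138782 bp, and 21-B was followed by 74948 bp without a peak.

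The length of the dense runs separated 5 units from the other 3. Unit 21-A ran from 8204940 to 8221063 (16124 bp), 21-C from 8387951 to 8404154 (16204 bp) and 21-D from 8432214 to 8448356 (16143 bp). Unit GL-A ran from 104319 to 120364 (16046 bp) and KI-A from 121243 to 137992 (16750 bp). The shorter runs were 21-B, from 8249169 to 8260924 (11756 bp), GL-B, from 148333 to 161656 (13324 bp), and KI-B, from 166359 to 179607 (13249 bp). Each of these 3 was the last run before a long stretch without peaks or the last of its scaffold. The lengths of the scaffolds were not used here, so whether their ends cut GL-B and KI-B short was not tested. Peaks covered between 55.9% (21-B) and 71.7% (KI-B) of a run, in 5 to 8 peaks.

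**Figure D1:**
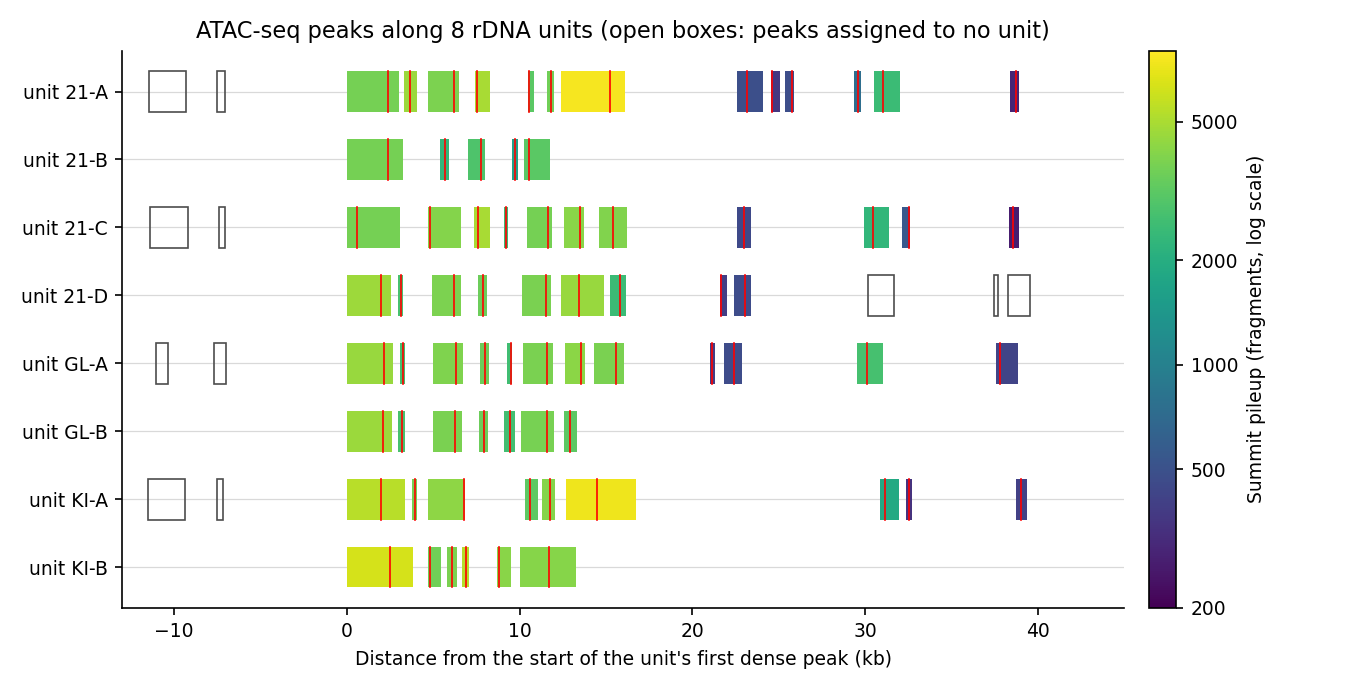
Peaks of the 8 rDNA units, with the distance in bp from the unit's anchor on the horizontal axis (in kb) and 1 row per unit. Boxes are peaks, coloured by summit pileup, red lines are summits, and open boxes are nearby peaks assigned to no unit. Dense runs reach about the same length in 5 units, from 16046 to 16750 bp, and 4 units have a strong spacer peak from 30097 to 31165 bp.

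Fold enrichment, the ratio of the fragments stacked at a summit to the local background of the peak caller, was low in the rDNA although the stacks were high. The median fold of the 76 peaks was 1.92 (95% interval of the median 1.73 to 2.34, from order statistics), against 5.60 over all peaks of the list. This and the later intervals treat the peaks as independent, although units can share fragments and are not replicates. A fold under 2 was found in 42 of the 76 peaks, against 0.591% of the whole list. The summit pileup, recovered from the fold and the listed p-value, had a median of 3482.5 fragments in the rDNA and of 56 fragments in the list. The local background had a median of 1641 fragments in the rDNA and of 8.57 fragments in the list. On a pileup of 3803, the median of the dense runs, the standard deviation from counting was 61.7 fragments.

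The dense runs and the spacers differ in background by definition. The median background was 1971 fragments in the dense runs and 255 in the spacers. In the dense runs the background ranged from 902 to 2744 fragments, and in the spacers from 169 to 382 fragments. Spacer peaks are those with a background under 100 times the lowest of the list, so the ranges cannot overlap. The background was at least 100 times the lowest of the list, 6.32 fragments, in all 53 peaks of the dense runs, which is how the runs were defined, and in 0 of the 19 spacer peaks, against 0.119% of the list. It was at least 10 times that value in 72 of the 76 peaks, against 1.6% of the list. The 4 exceptions were the peaks between 21-B and 21-C. Median folds of dense runs and spacers were close, at 1.84 and 1.85.

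**Figure D2:**
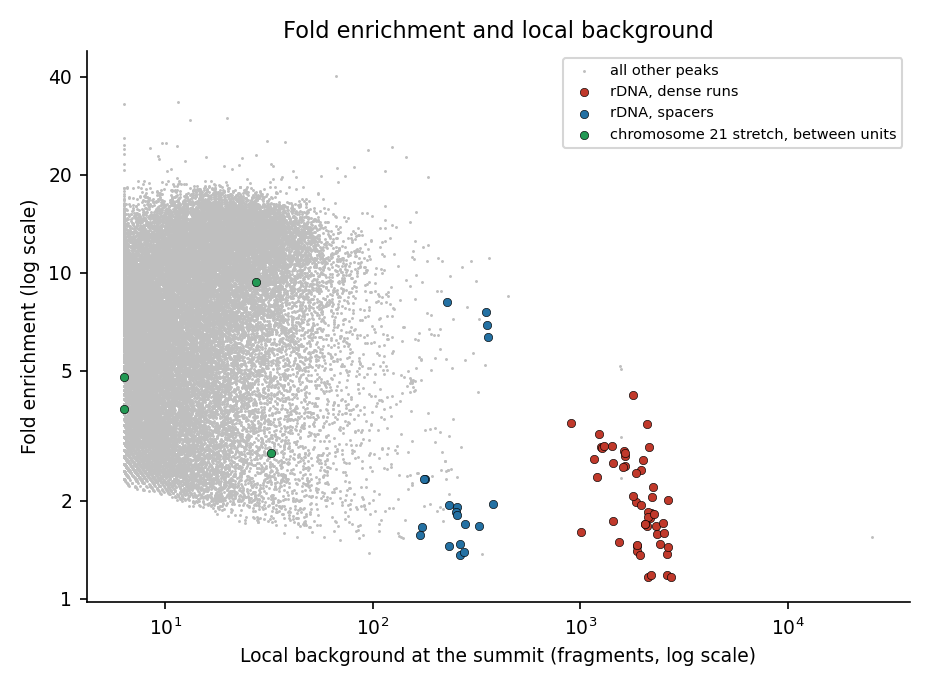
Fold enrichment (vertical, log scale) against the local background in fragments (horizontal, log scale) for each peak of the list. Grey points are peaks elsewhere, and coloured points are the 53 dense, 19 spacer and 4 other peaks of the rDNA stretches. Dense peaks sit at backgrounds of 902 to 2744 fragments and folds of 1.16 to 4.21.

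Peaks elsewhere in the list gave the following values. Outside the rDNA, the background reached 10 times the lowest in 709 peaks, called peaks of high background here, and their median fold was 6.22, with a median pileup of 598 fragments. Of these, 7.33% had a fold under 2. Their median background was 84.0 fragments, well below that of the rDNA, and only 5 of them reached 100 times the lowest, so that few peaks elsewhere had a background like that of the dense runs. The 359 peaks of other scaffold sequence had a median fold of 4.05 and a median background of 9.90 fragments, and the 639 other peaks of chromosome 21 had a median fold of 5.94 and a median background of 7.50 fragments. These are values of single peaks of 1 pooled list, and the differences were not tested.

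In the dense runs, the −log10 q-values were higher than in most of the list. A −log10 q-value of at least 100 was found in 46 of the 76 peaks (60.5%), against 21.5% of the list and 70.2% of the 709 other peaks of high background. By part, it was found in 41 of the 53 peaks of the dense runs (77.4%), 4 of the 19 spacer peaks (21.1%) and 1 of the 4 peaks between units. The share of the spacers was thus near that of the list. Both criteria together, a fold under 2 and a −log10 q-value of at least 100, held for 18 peaks (0.0369% of the list). Of these, 17 were rDNA peaks, all in dense runs, and 1 lay elsewhere. Under a Poisson distribution, both criteria can be met together only over a very high background. Dense runs were defined by such a background, and they held 53 of the 58 peaks of the list with at least 100 times the lowest. The count therefore follows largely from that definition. The lowest folds of the whole list were also in the rDNA. In the order of fold from the lowest, the first was a peak of 21-C from 8397029 to 8397286 (fold 1.16, 2462 fragments over a background of 2117), followed by peaks of KI-A from 131541 to 132275 (1.16, 3196 over 2744), of GL-A from 113567 to 113892 (1.18, 2586 over 2188) and of 21-A from 8215420 to 8215757 (1.19, 3112 over 2626). These 4 peaks lay between 9211 and 10579 bp from their anchors.

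Peaks of the dense runs were broader than most of the list. Their median width was 1144 bp (95% interval of the median 733 to 1715 bp), against 590 bp in the list and 630 bp in the spacers (462 to 1284 bp). It was close to the 1142 bp (1082 to 1204 bp) of the 709 other peaks of high background. The widest peaks of the dense runs spanned 4080 bp in KI-A, from 133913 to 137992, 3847 bp in KI-B, from 166359 to 170205, and 3712 bp in 21-A, from 8217352 to 8221063. The 76 peaks made up 0.275% of the sequence covered by the list and 3.73% of the sum of all summit pileups.

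The first peak of a run was broad in every unit, from 2574 bp in 21-D to 3847 bp in KI-B. Its summit did not lie near the anchor but farther into the peak in 7 of the units, from 1964 bp in 21-D to 2494 bp in KI-B. In 21-C, the summit lay at 571 bp. The pileup at this summit was 3692 fragments in 21-A, 3679 in 21-B, 3717 in 21-C, 4633 in 21-D, 4500 in GL-A, 4584 in GL-B, 5352 in KI-A and 6310 in KI-B. The values of 21-A, 21-B and 21-C differed by less than the counting error, which is 60.8 fragments on 3692, and the units of KI270733.1 were the highest. The fold of this peak was 1.98 in 21-A and from 2.67 to 2.93 in the other units.

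Peaks of different units were then matched by the position of their summits. With a tolerance of 500 bp, the 72 peaks assigned to a unit fell on 31 positions, of which 19 were shared by at least 2 units and held 60 of the peaks. Peaks of a run are closely spaced, so summits of different units can fall within 500 bp of each other without a common site. How many matches arise in this way was not tested, and the counts are a description of the matching. The matching also split the strong spacer peak described below over positions from 30097 to 30428 bp and from 31036 to 31165 bp. No position was found in all 8 units. The most widely shared position, from 11508 to 11832 bp, held a peak in 7 units, all but 21-B, whose run ends at about that distance. Its pileup was 3573 fragments in 21-A, 3723 in 21-C, 3831 in 21-D, 3803 in GL-A, 3778 in GL-B, 4023 in KI-A and 4084 in KI-B. The fold there was lowest in 21-A (1.47) and highest in GL-B (2.61), and the width went from 407 bp in 21-A to 3219 bp in KI-B. The pileups were thus closer together than the folds and the widths. GL-B and KI-B are the last runs of their scaffolds, and whether this affected their backgrounds and folds was not tested.

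The next most shared position lay from 7543 to 7985 bp and held peaks in 6 units, missing in KI-A and KI-B. Here the units fell into 3 levels. The pileup was 4966 fragments in 21-A and 4908 in 21-C. It was 3490 in 21-D, 3483 in GL-A and 3482 in GL-B. In 21-B it was 2835. Within the first 2 levels the values differed by less than the counting error, which is 70.5 fragments on 4966 and 59.1 on 3490, and between the levels by many times that error. The summits of 21-A and 21-C also lay at 7543 and 7567 bp, close to each other, and those of 21-D, GL-A and GL-B at 7889, 7985 and 7943 bp.

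A position from 6092 to 6292 bp held peaks in 5 units, with 3878 fragments in 21-A, 3866 in 21-D, 3918 in GL-A, 3782 in GL-B and 3803 in KI-B. At matched positions of at least 3 units, the standard deviation of the fold over units had a median of 0.265 (11 positions). Units can share fragments and are not replicates, so this spread describes the list only.

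The share of matched peaks varied among pairs of units. Of the 9 peaks of KI-A, 5 were matched in 21-A, 3 in 21-C, 2 each in 21-D, GL-A, GL-B and KI-B and 1 in 21-B. Between KI-A and KI-B, the 2 shared positions were those near 6757 to 6869 bp, with 4257 fragments in KI-A and 5335 in KI-B, and near 11706 to 11743 bp, with 4023 fragments in KI-A and 4084 in KI-B. By comparison, 7 of the 9 peaks of 21-D were matched in GL-A (77.8% of 21-D and 58.3% of the 12 peaks of GL-A), and 6 of the 7 peaks of GL-B (85.7% of GL-B and 50% of GL-A).

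A peak in a single unit was found at 12 positions, 5 of them in dense runs. These were the first peak of 21-C with its summit at 571 bp, a peak of 21-B at 5652 bp (2282 fragments, fold 1.49), a peak of KI-B at 8812 bp (4158 fragments, fold 1.82), the last peak of GL-B at 12932 bp (3155 fragments, fold 2.69) and the last peak of KI-A at 14480 bp. In the spacers, they were 3 peaks of GL-A, 3 of 21-A and 1 of 21-D. Several of these overlapped peaks of other units although their summits lay farther away than the tolerance, as the broad first peak of 21-C did.

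**Figure D3:**
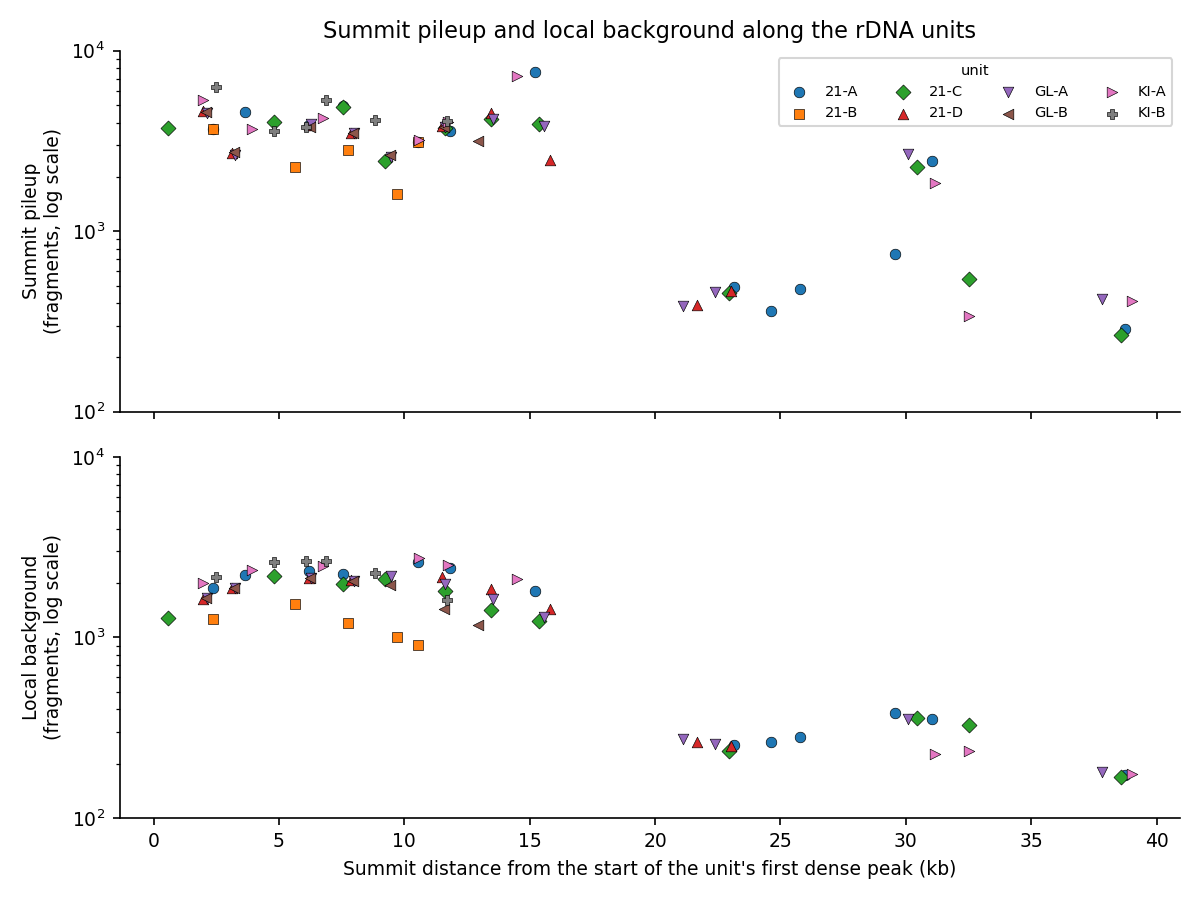
Summit pileup (top) and local background (bottom), both in fragments on a log scale, against the summit's distance from the anchor in kb, with a symbol for each unit. Pileups in the dense runs lie from 1613 to 7587 fragments, those of the spacers from 267 to 2692 fragments, and unit 21-B has the lowest backgrounds of the dense runs.

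Units GL-A, GL-B and 21-D had more coinciding peak features, in each of their pairs, than any other pair of units. For each pair of units, the shift was searched that brought the most peak starts, ends and summits within 10 bp of each other. Over the 28 pairs, 12 such features coincided between GL-A and GL-B, 12 between GL-A and 21-D and 10 between GL-B and 21-D. In the other 25 pairs it was 2 to 4, which shows how many coincide when the best shift is taken. The shift from GL-A to GL-B was 43972 bp. After this shift, the peak of GL-A from 112026 to 112543 and that of GL-B from 155998 to 156521 had the same start and the same summit. The peaks of GL-A from 109322 to 111026 and of GL-B from 153294 to 154996 also had the same start and summit, and their ends differed by 2 bp. Summits coincided more often than borders. Of the 6 peaks matched between GL-A and GL-B, the summits of all 6, the starts of 2 and the ends of 4 lay within 10 bp. Of the 7 matched between GL-A and 21-D, it was 5 summits, 3 starts and 4 ends. Some borders were far apart, as in the peak of GL-A from 113567 to 113892, which was 326 bp wide and 667 bp in GL-B with the same summit.

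The heights of the matched peaks were compared next. These units were picked for their coinciding features in the same list and can share fragments. Their counts are therefore not independent, and the comparison is a description only. Between GL-A and GL-B, in all 6 the summit pileups differed by less than 2 counting standard deviations of the difference, the largest being 1.55. Between GL-A and 21-D this held for 5 of 7 matched peaks. The values of GL-A, GL-B and 21-D were 4500, 4584 and 4633 fragments in the first peak, 2644, 2734 and 2719 in the peak that followed, and 3918, 3782 and 3866 in the peak after that. Toward the end of the run 21-D departed from GL-A. The pileup at 13458 bp in 21-D was 4513 fragments against 4193 at 13540 bp in GL-A, and the last peak of the run had 2485 fragments in 21-D and 3836 in GL-A. Folds could differ where summit and pileup did not. For the peak at 11605 bp of GL-A, the fold was 1.93 in GL-A and 2.61 in GL-B (3803 and 3778 fragments). This followed from the background, which was 1966 fragments in GL-A and 1445 in GL-B. GL-B is the last run of its scaffold, and whether the end of the scaffold affected its background was not tested.

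**Figure D4:**
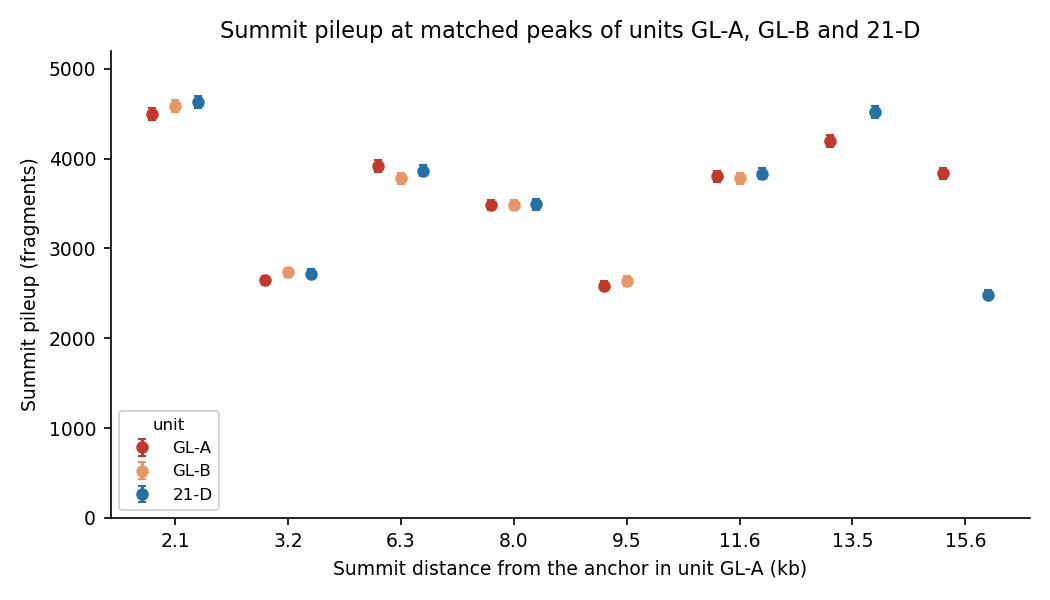
Summit pileup in fragments of the peaks of GL-A that were matched in GL-B or 21-D, ordered by the summit's distance from the anchor in GL-A (kb). Bars are the counting standard deviation, the square root of the pileup. The units lie close together at the first 6 positions. At the next position GL-A has 4193 and 21-D 4513 fragments, and they lie farthest apart at the last, where GL-A has 3836 and 21-D 2485 fragments.

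Within the dense runs, the strongest peak by −log10 q-value was at the far end in some units and at the beginning in others. In 21-A it was the last peak, from 8217352 to 8221063, with 7587 fragments at 15225 bp, a fold of 4.21 and a −log10 q-value of 2220, which was the 8th highest of the whole list. In KI-A it was also the last peak, from 133913 to 137992, with 7238 fragments at 14480 bp, a fold of 3.43 and a −log10 q-value of 1647. In 21-C it was the last as well, with 3951 fragments at 15376 bp, a fold of 3.20 and a −log10 q-value of 816. In 21-B the last peak of its shorter run, at 10561 bp, was the strongest, with 3129 fragments and a fold of 3.47. In 21-D, GL-A, GL-B and KI-B the strongest of the run was the first peak, with folds of 2.84, 2.73, 2.79 and 2.92. In 21-C and GL-A, the spacer peak described below had a higher −log10 q-value than any peak of the run (996 and 1356). The 2 highest pileups of the rDNA, in 21-A and KI-A, thus lay in the same part of the unit, while in 21-C, 21-D and GL-A the last 2 peaks of the run had from 2485 to 4513 fragments.

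Unit 21-B had the lowest levels. Its 5 peaks had a median pileup of 2835 fragments and a median background of 1202 fragments, against medians of 3482 to 4140 fragments and of 1805 to 2454 fragments in the other units. Its median fold was 2.36, with only 21-C higher at 2.49. The pileups of single peaks overlapped with those of other units, from 1613 to 3679 fragments in 21-B. The 2 units of KI270733.1 had the highest median pileups, 4140 and 4121 fragments.

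In the spacers, a single peak stood far above the rest. It was found in the 4 longer units whose spacer lies inside the stretches up to that distance. The shorter unit 21-B also has this distance inside its stretch, but it had 0 spacer peaks and was followed by 74948 bp without a peak. Whether the assembly holds sequence there was not checked. In 21-A the strong spacer peak spanned 8235458 to 8236943, with a pileup of 2457 fragments and a fold of 6.92. In 21-C it spanned 8417883 to 8419348, with 2279 fragments and a fold of 6.36. In GL-A it spanned 133868 to 135369, with 2692 fragments and a fold of 7.60. In KI-A it spanned 152121 to 153222, with 1854 fragments and a fold of 8.15. Its −log10 q-value was between 983 and 1356. The folds of these 4 peaks were above those of all 53 peaks of the dense runs, at 6.36 to 8.15 against at most 4.21, while their pileups lay inside the range of the dense runs. Spacer peaks have a lower background than dense runs by definition, and the fold is taken over the background. At such pileups, the higher folds therefore follow from that definition.

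The position of this spacer peak was closer among units when counted back from the next unit than forward from its own, except for 21-A. Its summit lay 13835 bp before the next anchor in 21-C, 13917 bp in GL-A and 13951 bp in KI-A, and 13193 bp in 21-A. Counted from its own anchor, it lay at 30428, 30097, 31165 and 31036 bp. In 21-D, the stretch ended before this distance. The first peak outside it, from 8462381 to 8463889, had its summit 30758 bp from the anchor of 21-D, with 2641 fragments, a fold of 7.55 and a background of 349 fragments, against 353 to 358 in 21-A, 21-C and GL-A and 227 in KI-A.

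The other spacer peaks were weak. Of the 15, the fold was between 1.37 and 2.34 and the pileup between 267 and 748 fragments. A peak at 22964 to 23158 bp was found in 21-A (488 fragments), 21-C (453) and 21-D (466), with folds of 1.91, 1.94 and 1.85, and the counting error was 22.1 fragments on 488. GL-A had a peak at 22383 bp with 462 fragments and a fold of 1.81. A peak at 38576 to 39000 bp had 288 fragments in 21-A, 267 in 21-C and 410 in KI-A, and GL-A had a peak at 37811 bp with 420 fragments. KI-A had no peak in its spacer before 31165 bp. The number of spacer peaks was 6 in 21-A, 4 in 21-C, 4 in GL-A, 3 in KI-A and 2 in 21-D, where the edge of the stretch cut the spacer short.

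The 4 peaks between 21-B and 21-C were unlike those of the units. The first 2, from 8335873 to 8336319 and from 8338713 to 8339107, had 27 and 34 fragments over the lowest background of the list, with folds of 3.83 and 4.78. The third, from 8376532 to 8378743, had 264 fragments over 27.4 and a fold of 9.34, the highest of all 76 peaks. The fourth, from 8380525 to 8380897, had 92 fragments over 32.2 and a fold of 2.80. The summits of the last 2 lay 10619 and 7295 bp before the anchor of 21-C.

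At the lower edges of the stretches the levels rose abruptly. The last peak before 21-A, from 8197454 to 8197861, had 87 fragments and the first inside 3692. The last peak before GL-A had 73 fragments and the first inside 4500. The last before KI-A had 94 fragments and the first inside 5352. At the upper edge on chromosome 21, which cuts the spacer of 21-D, the last peak inside had 466 fragments and the first outside 2641. No peak followed the stretches on the scaffolds, and whether any scaffold sequence lies beyond them was not checked.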

How the data were processed

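ATAC-seq was measured in 4 libraries. According to the methods, the authors trimmed reads with Trimmomatic, aligned them to GRCh38.p10 with Bowtie2, marked duplicates with Picard, ran MACS2 on paired-end fragments and removed blacklisted regions. The methods list the Bowtie2 options, and neither these nor a named filter state how reads with several alignments were handled. Per the labels the deposited list was called on merged samples, and columns of single samples number 0. The authors deposited the position of each peak, a score (not used further), the fold enrichment as a linear ratio, and p-value and q-value, both as −log10. The depth per library is unknown from the list.

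Pileup and background were recovered under a Poisson distribution with a pseudocount of 1 (Python 3.11.15, numpy 2.4.6, pandas 2.3.3, scipy 1.17.1, matplotlib 3.10.9), by a search tested on simulated data. A whole pileup within 0.001 of the −log10 p-value was found for 55 of the 76 peaks, and for all 76 within what the 5 decimals of the fold allow. Positions are 1-based. Counting errors are square roots of pileups and cover counting only.

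Dense runs joined peaks whose background was at least 100 times the lowest of the list, with gaps of at most 10000 bp, and spacer peaks started within 46000 bp of an anchor. These limits were set after the values were seen, and the stretches and genes were chosen with earlier results of these data known. Genes were to be named by a rule, the 5 genes given and those that the peaks overlap. The single peaks named are the strongest of each run or spacer, or were chosen after their values were seen. Alternatives were a stricter q-value, wider stretches, other tolerances, anchors, matching, pseudocount and background, and, added after seeing the data, leaving out each stretch. Sequence identity, motifs, promoters of RNA polymerase I genes and the 5S genes were not analysed here, because the reference at hand was GRCm38.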

Additional observations from a re-analysis of the deposited data

How the results depend on the processing

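Of 24 values under an alternative, 22 stayed inside the interval of the main value or, for counts, within 1.5 times of it. The intervals treat the peaks as independent, so staying inside them is a description and not a test of stability. The median fold of 1.92 became 476 when the summit pileup was set over the lowest background of the list in place of the local one, which follows by construction from the high local background of the rDNA. The median local background of 1641 fragments was 1953 fragments without chromosome 21, an alternative added after seeing the data, and the cause was not tested. The number of shared positions was 19, and 17 to 18 with tolerances of 250 and 1000 bp, matching by overlap, and an anchor on the strongest peak. With whole scaffolds and 20 kb more on each side of chromosome 21, the number of peaks rose from 76 to 94. Restriction by q-value (−log10 of 5 or more) removed 0 peaks and says nothing about stability. Only 1 position was found in all 5 longer units, with a standard deviation of the fold of 0.442. No replicate could be left out, as only pooled values are given. No paired analysis was possible because all values are those of 4 pooled libraries. The alternatives that need a GRCh38 sequence or annotation were not run.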

Other observations

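A pair of peaks preceded the first unit of each stretch, and also unit 21-C, at nearly the same spacing. The summits of the 2 peaks were 3325 bp apart before 21-A, 3324 bp before 21-C, 3321 bp before GL-A and 3324 bp before KI-A. The nearer summit lay 7327, 7295, 7199 and 7393 bp before the anchor, in that order. Its pileup was 87, 92, 73 and 94 fragments, and that of the farther summit 255, 264, 130 and 236 fragments. GL-A had the lowest value of both. Except before 21-C, these peaks lie outside the stretches described above, and no such pair preceded 21-B, 21-D, GL-B or KI-B, which follow another unit or its spacer.

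Farther from the units, the 2 scaffolds also carried peaks at like distances from the anchors of GL-A and KI-A. A peak lay 96781 bp before GL-A (443 fragments, fold 15.4) and 96801 bp before KI-A (659 fragments, fold 19.4). Another lay 51753 bp before GL-A (69 fragments) and 51612 bp before KI-A (36 fragments). Next came peaks 36094 bp before GL-A (27 fragments) and 35951 bp before KI-A (24 fragments), and then peaks 33128 bp before GL-A (21 fragments) and 33071 bp before KI-A (22 fragments). KI270733.1 had 1 further peak at 108849 bp before KI-A (53 fragments, fold 7.38), a distance that exceeds the part of GL000220.1 before GL-A. The folds of the peaks at the longest shared distance were above every fold of the 76 rDNA peaks, of which the highest was 9.34.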
